A study of Mus with 3 samples.

Results

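The genes described here code for the NMDA, kainate and metabotropic glutamate receptors and for the scaffolds and enzymes that sit beneath them at excitatory synapses, together with the neuroligins. They were 39 of the 23683 genes named on the arrays and were chosen by gene name. Each gene was read from its brightest probe among those well above background, which means a signal to noise ratio of at least 2.6.

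Glutamate released at an excitatory synapse opens NMDA and kainate receptors, which are ion channels, and activates metabotropic receptors, which act through G proteins. The receptors are held in the postsynaptic density by layered scaffolds: Dlg proteins bind receptor tails, Dlg-associated proteins link them to Shank proteins, and Homer proteins join Shank to metabotropic receptors. Calcium entering through NMDA receptors activates the kinase CaMKII, whose response at hippocampal synapses is a well known step in long-term potentiation, the strengthening of synapses studied as a basis of memory.

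RNA came from the hippocampus of male Slc:ddY mice, 6 weeks old in the labels, in 3 groups of 10 mice. Mice of the ASO group were given shochu oil by mouth at 2000 mg/kg/day for 15 days, and on day 8 received 5 µL with 10 nmol of the peptide Aβ25-35, a fragment of amyloid beta, injected into the cerebral ventricles. Mice of the ACO group were given distilled water in place of the oil and received the same peptide injection. Mice of the NCO group had distilled water by mouth and 5 µL of distilled water in place of the peptide. How that water was given is not stated, so in ACO against NCO the peptide and the act of injection cannot be told apart. One injected group appears in the protocol under a name that no sample bears; it was read as ASO, which the study design lists as injected.

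A Y-maze test of spontaneous alternation was run on day 16, before the tissue was taken. RNA of 2 mice made 1 set, and equal parts of a group's 5 sets were combined, so each group was 1 pool on 1 one-colour Agilent array. There were no replicates, and no difference below has a p-value or an error between mice. All 3 arrays lay on 1 slide, at positions 4 for ASO, 2 for ACO and 1 for NCO. The share of the 39429 gene probes that stood well above background was 53.7% in ASO, 51.7% in ACO and 50.9% in NCO. Signals are intensities scaled to a common 75th percentile, and differences are in log2 of the signal plus 50. Folds and fold limits are also of the signal plus 50. For a dim gene they are therefore nearer to no change than the ratio of the printed signals. A difference was counted when it reached 1.2-fold, which is 0.26 on the log2 scale. For the 250 probes printed on 10 spots, the median SD of the difference over spots was 0.085 for ACO minus NCO, 0.094 for ASO minus ACO and 0.098 for ASO minus NCO. That SD covers spot error only. The level of a probe depends on the probe, so levels were compared between arrays for 1 probe and never between genes.

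The tissue label was checked against marker genes. Of the markers of dentate granule cells, 9 of 10 were well above background on all 3 arrays, as were 5 of 7 markers of CA1 pyramidal cells, 4 of 8 of CA3 pyramidal cells and 8 of 8 pan-neuronal genes. Striatal markers were measured too, in 6 of 8 cases, but Drd2 and Adora2a, which define striatal neurons, were not well above background on any array.

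Of the 39 genes, 36 were well above background on all 3 arrays. Grin2d and Shank2 were not well above background on any array. Grik3 missed the limit on the ACO array only. In all, 32 genes stayed within 1.2-fold or could not be compared, and 7 were at least 1.2-fold apart somewhere. The largest differences were for Dlgap4, Grik5, Camk2n1 and Nlgn1, with ASO above NCO in each.

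**Figure D1:**
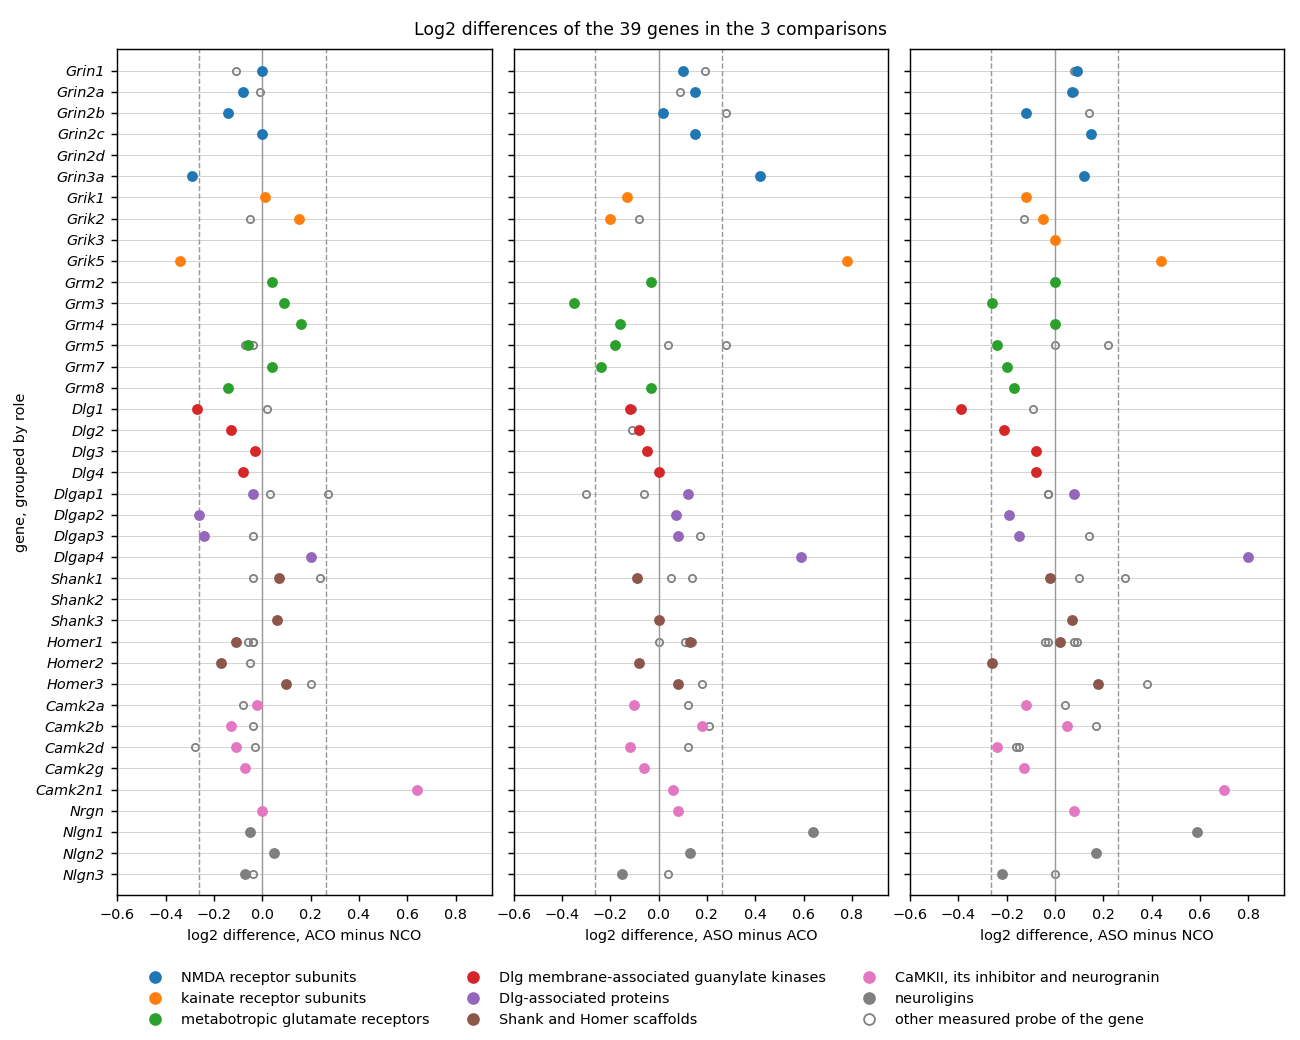
Log2 difference (x axis) of each of the 39 genes (y axis, grouped by role) for ACO minus NCO, ASO minus ACO and ASO minus NCO. Filled points are the brightest measured probe, open points the gene's other measured probes, dashed lines 1.2-fold in either direction, and a row with no filled point was not measured on both arrays. Most filled points lie between the dashed lines, with Camk2n1 at 0.64 in ACO minus NCO and Dlgap4 at 0.80 in ASO minus NCO farthest out on the high side.

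ACO against NCO addresses what the peptide injection did in mice given water. Across all 13312 genes measured on both arrays, 2.76% were at least 1.2-fold higher and 2.72% at least 1.2-fold lower in ACO. Of the 36 synaptic genes, 1 was higher in ACO (Camk2n1) and 3 were lower (Grik5, Grin3a and Dlg1). The higher gene is 2.78% of the 36, at the share of all genes, and the 3 lower genes are 8.33%. Which genes were lower depended on the processing. With spot means they were 2, Grin3a and Dlgap3, because Grik5 turned to 0.09 and Dlg1 fell short. Of the 3, only Grin3a stayed past 1.2-fold under every way of processing. At a limit of 1.5-fold, Camk2n1 was still higher (0.203% of all genes) and none of the 36 was lower (0.21% of all genes). None was 2-fold higher or lower, as were 0.0376% and 0.0376% of all genes. Just short of the limit stood Dlgap2 at -0.26, beside Dlg1 at -0.27. The median difference of the 36 genes was -0.045, against 0.005 over all genes, and 12 of 36 lay above 0, against 51.8% of all genes. With spot means in place of spot medians, the members' median was -0.008 and 18 of 36 lay above 0, so the lean to the low side depended on how spots were summarised.

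ASO against ACO addresses what shochu oil did in mice injected with the peptide. ASO against NCO sets mice given oil and peptide beside mice given neither oil nor peptide. In ASO minus ACO, 10.1% of 13565 genes were at least 1.2-fold higher and 9.25% lower. Of the 36 synaptic genes, 4 were higher in ASO (Grik5, Nlgn1, Dlgap4 and Grin3a) and 1 was lower (Grm3). In ASO minus NCO, 10.4% of 13455 genes were higher and 8.31% lower. Of the 37 synaptic genes measured on both, 4 were higher in ASO (Dlgap4, Camk2n1, Nlgn1 and Grik5) and 1 was lower (Dlg1). With quantile normalization the last count was 3 lower genes, beside 4 higher. The higher genes were 11.1% and 10.8% of the synaptic genes, near the shares over all genes. The lower genes were 2.78% and 2.7%, below those shares. At a limit of 1.5-fold, 3 of 36 genes (8.33%) were higher in ASO minus ACO, against 1.64% of all genes, and 3 of 37 (8.11%) in ASO minus NCO, against 1.65%. The first of these counts depended on the processing: it was 0 of 36 with spot means and 1 of 36, Grik5, after correction by surrounding spots. The second was 2 of 37 under each of those settings. None was 1.5-fold lower in either, against 0.273% of all genes in ASO minus ACO and 0.357% in ASO minus NCO. No synaptic gene was 2-fold apart in ASO minus ACO, where 0.184% of all genes were higher and 0.0663% lower, or in ASO minus NCO, where 0.178% were higher and 0.0892% lower. The medians were close to those of all genes, 0.001 against -0.013 in ASO minus ACO and -0.015 against -0.014 in ASO minus NCO. In ASO minus ACO, 19 of 36 lay above 0, against 47.1% of all genes, and in ASO minus NCO 17 of 37, against 47.1%.

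The comparisons are not independent. The ACO array enters ACO minus NCO and ASO minus ACO with opposite sign, so a spot that read low on it gives a negative and a positive difference at once. The NCO array enters ACO minus NCO and ASO minus NCO with the same sign, so a spot that read low on it raises both. The ASO array also stood apart in its control spots: 5 spike-in probes, for RNA added during labelling, were 0.41 to 0.82 higher in ASO than in ACO and 0.26 to 0.68 higher in ASO than in NCO, against -0.16 to -0.12 in ACO minus NCO. Its part in the differences was not tested.

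**Figure D2:**
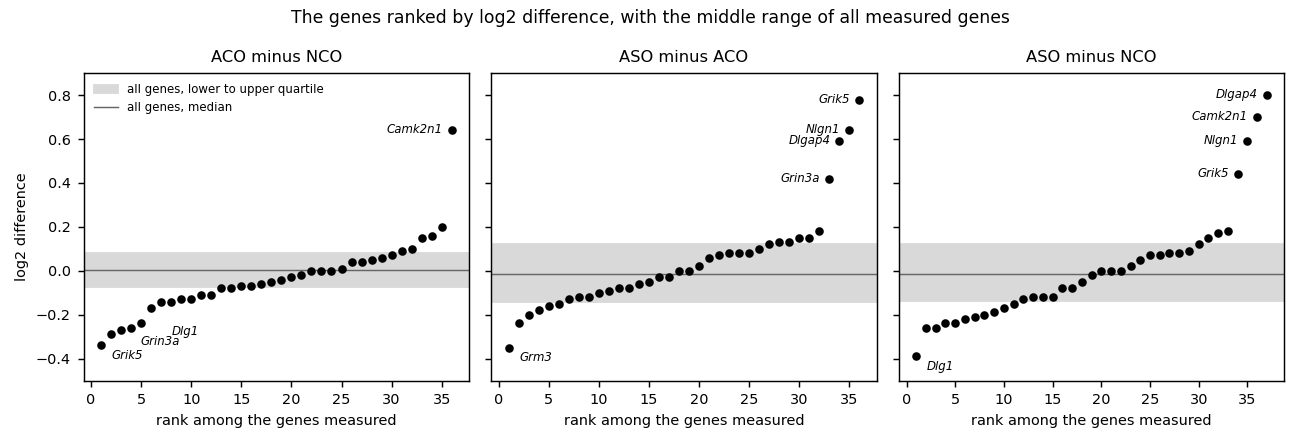
Log2 difference (y axis) of the genes in rank order (x axis) for ACO minus NCO, ASO minus ACO and ASO minus NCO, with the quartile range of all measured genes in grey and their median as a line. Named points are at least 1.2-fold apart, and the 4 highest in ASO minus ACO and in ASO minus NCO stand clear of the rest.

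NMDA receptors are assembled from the obligatory subunit Grin1 with Grin2 or Grin3 subunits. Grin1 had a signal of 3525 in ASO, 3292 in ACO and 3297 in NCO, which is a difference of 0.10 in ASO minus ACO and 0.09 in ASO minus NCO. Grin2a, a subunit typical of mature synapses, read 978 in ASO, 877 in ACO and 931 in NCO. Grin2b, which is more prominent early in development and at extrasynaptic sites, read 1986 in ASO, 1957 in ACO and 2164 in NCO. For these main subunits the brightest probes differed by no more than 0.15 on the log2 scale. In bulk tissue, fewer cells of a type and less RNA per cell cannot be told apart, here or in what follows.

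The 2 Grin2b probes agreed for ACO minus NCO, both at -0.14, and parted elsewhere. The second probe read 1359 in ASO, 1110 in ACO and 1226 in NCO, which gives 0.28 in ASO minus ACO against 0.02 for the brighter one. In ASO minus NCO the second probe stood at 0.14 and the brighter one at -0.12. Probes near the brighter one had a median difference of -0.35 in that comparison, and its own value became 0.22 once that local shift was taken off. Grin2c, a subunit best known from cerebellum and glia, differed by 0.15 in ASO minus ACO, with no difference in ACO minus NCO.

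Grin3a, which lowers the calcium permeability of NMDA receptors, was the only subunit past 1.2-fold when each was read from its brightest probe. It read 166 in ASO, 112 in ACO and 148 in NCO. ACO was the low array, with -0.29 against NCO (0.816-fold), and ASO stood 0.42 above ACO (1.33-fold) but only 0.12 above NCO. The authors' deposited table held it at 138.3 in ASO, 92.8 in ACO and 123.8 in NCO. Those values follow the same scanner readings, so their order is not a separate measurement. This dim gene had 1 measured probe.

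All 5 measured NMDA subunits were higher in ASO than in ACO by their brightest probes, with a median of 0.146. Over all genes, 47.1% lay above 0 in that comparison and 51.8% in ACO minus NCO. None of the 5 subunits lay above 0 in ACO minus NCO, where 2 of them (Grin1 and Grin2c) rounded to zero. The same ACO array lies beneath both statements on the subunits.

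Kainate receptors combine Grik1, Grik2 or Grik3 with the high-affinity subunits Grik4 or Grik5. Grik5 showed the widest span among the receptors, at 2796 in ASO, 1607 in ACO and 2055 in NCO. ASO was the high array, by 0.78 over ACO (1.72-fold) and 0.44 over NCO (1.35-fold), and ACO the low one, at -0.34 against NCO (0.787-fold). The last of these depended on how the spot was summarised. Read from spot means, the signals were 2151 in ASO, 1576 in ACO and 1481 in NCO, and ACO minus NCO became 0.09, the opposite sign. The ratio of median to mean on the Grik5 spot of the ACO array was 0.04 on the log2 scale, against 0.40 for that array's spots in general, and only 0.0347% of spots with a signal of at least 1000 were lower. On the NCO array the ratio for Grik5 was 0.48, against 0.39 in general. ASO stayed above both other arrays with spot means, at 0.44 over ACO and 0.52 over NCO. Grik5 had 1 measured probe.

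The other kainate subunits stayed within 1.2-fold in the main processing where measured. Grik1 stood at -0.13 in ASO minus ACO, and Grik2, whose loss in mice removes kainate currents at mossy fibre synapses, at -0.20. The Grik2 difference passed 1.2-fold with a constant of 16 and with correction by surrounding spots, at -0.32 under the latter. A second Grik2 probe gave -0.08. A further probe, looked at after its values were seen, carried the RIKEN clone name C130030K03Rik, which RefSeq lists as a synonym of Grik2. It read 132 in ASO, 199 in ACO and 198 in NCO, a difference of -0.45 for ASO against either array. It was not counted with Grik2 because the file names it otherwise. Grik3 read 500 in ASO and 501 in NCO, with no difference between them.

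**Figure D3:**
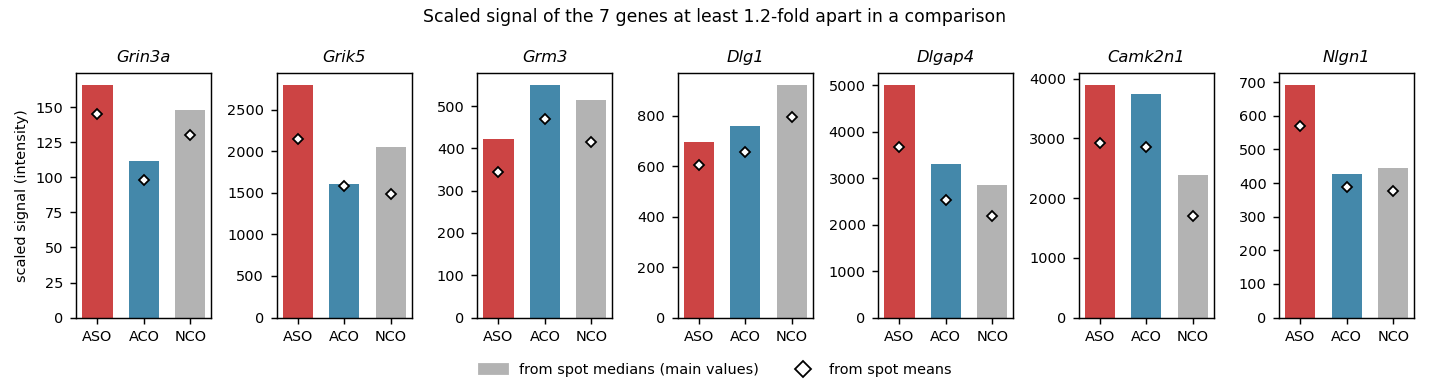
Scaled signal (y axis, linear intensity from 0, each panel with its own scale) on the ASO, ACO and NCO arrays for the 7 genes at least 1.2-fold apart in some comparison. Bars are from spot medians and diamonds from spot means; there is 1 array per group, so no error bars are drawn. Dlgap4 and Nlgn1 are highest in ASO and Camk2n1 is lowest in NCO by both readings, while for Grik5 the order of ACO and NCO turns round.

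Metabotropic receptors fall into a group coupled to phospholipase C, here Grm5, and groups that inhibit adenylyl cyclase and sit mostly on presynaptic terminals and glia. Grm5, the main postsynaptic member in the hippocampus, read 7898 in ASO, 8942 in ACO and 9349 in NCO. ASO was the low array, at -0.18 against ACO and -0.24 against NCO, short of 1.2-fold. The other probe for the same transcript variant gave 0.28 and 0.22 in those comparisons, and a probe for variant a gave 0.04 and -0.00. The 3 probes therefore gave no common direction.

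Grm3, which is abundant in astrocytes and also presynaptic, was the one metabotropic receptor past 1.2-fold when each was read from its brightest probe. It read 421 in ASO, 550 in ACO and 514 in NCO. ASO was low, at -0.35 against ACO (0.785-fold) and -0.26 against NCO, just short of the limit. Its close relative Grm2 stayed within 0.04 in every comparison. The presynaptic receptors Grm4, Grm7 and Grm8 ranged from -0.14 to 0.16 in ACO minus NCO. In ASO minus ACO they stood at -0.16 for Grm4, -0.24 for Grm7 and -0.03 for Grm8. All 6 metabotropic receptors were lower in ASO than in ACO by their brightest probes, with a median of -0.168. Over all genes, 7179 of 13565 lay below 0. The 6 include Grm5, whose probes gave no common direction.

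The Dlg proteins are membrane-associated guanylate kinases that bind the tails of NMDA receptor subunits. Dlg4, the most abundant of them at mature excitatory synapses, read 3089 in ASO, 3089 in ACO and 3271 in NCO. It differed by -0.08 in ACO minus NCO and by 0.00 in ASO minus ACO. Dlg2 and Dlg3 lay between -0.21 and -0.03 across the comparisons.

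Dlg1, which takes part in delivering AMPA and NMDA receptors to the membrane, was low in both groups given the peptide. It read 694 in ASO, 758 in ACO and 922 in NCO, a difference of -0.39 in ASO minus NCO (0.766-fold) and -0.27 in ACO minus NCO (0.831-fold). The second Dlg1 probe gave -0.09 and 0.02. With the mean of the probes in place of the brightest, neither value reached 1.2-fold, at -0.24 in ASO minus NCO and -0.12 in ACO minus NCO. By their brightest probes, all 4 Dlg genes were below 0 in ACO minus NCO and in ASO minus NCO. Over all genes, 6417 of 13312 and 7114 of 13455 were below 0.

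Dlg-associated proteins tie the Dlg layer to Shank. Dlgap4 had the largest difference among the 39 genes. It read 5007 in ASO, 3299 in ACO and 2859 in NCO. ASO was higher than NCO by 0.80 (1.74-fold) and higher than ACO by 0.59 (1.51-fold), and ACO was 0.20 above NCO. Over the alternative ways of processing the files, ASO minus NCO ran between 0.74 and 0.81. One measured probe carried it.

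The other Dlg-associated genes stayed within 1.2-fold by their brightest probes in the main processing. In ASO minus ACO all 4 lay above 0, against 47.1% of all genes, with Dlgap1 at 0.12, Dlgap3 at 0.08 and Dlgap2 at 0.07. Dlgap3, best known from the striatum, stood at -0.24 in ACO minus NCO and -0.15 in ASO minus NCO, and its second probe at -0.04 and 0.14. Dlgap2 stood at -0.19 and Dlgap1 at 0.08 in ASO minus NCO. A second Dlgap1 probe gave 0.27 in ACO minus NCO and -0.30 in ASO minus ACO, where the brighter one gave -0.04 and 0.12.

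Shank3, a master scaffold at the base of the postsynaptic density, was the best measured gene because its probe was printed on 10 spots. The spots ranged from 2868 to 4482 with a median of 3470 in ASO, from 2859 to 4453 with a median of 3533 in ACO, and from 2754 to 4226 with a median of 3248 in NCO. The arrays overlapped across nearly their whole range. The spot by spot difference averaged 0.06 ± 0.073 for ACO minus NCO, 0.00 ± 0.053 for ASO minus ACO and 0.07 ± 0.074 for ASO minus NCO (SD over 10 spots). Shank1 was within 0.09 in every comparison by its brightest probe, while another stood at 0.29 in ASO minus NCO.

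Homer1 exists as long forms that link receptors to Shank and as a short, activity-induced form that uncouples them, and the arrays carried probes for both. The brightest long-form probe read 1216 in ASO, 1104 in ACO and 1197 in NCO, or 0.13 in ASO minus ACO. The brightest short-form probe read 621 in ASO, 620 in ACO and 637 in NCO, or 0.00 in ASO minus ACO. A second short-form probe gave 0.11 in that comparison and a second long-form probe 0.14. No Homer1 probe reached 1.2-fold anywhere, in either form.

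Homer2 lay at -0.26 in ASO minus NCO, just short of the limit. Homer3, which is also a marker of CA3 in the list used here, lay at 0.18, with its second probe at 0.38.

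CaMKII is built from alpha, beta, gamma and delta subunits, the first 2 being those that dominate in forebrain neurons. Camk2a read 4486 in ASO, 4813 in ACO and 4888 in NCO by its brightest probe, and the differences ran from -0.12 to -0.02. A second Camk2a probe lay on the other side of 0 in ASO minus ACO, at 0.12, and in ASO minus NCO, at 0.04. In ACO minus NCO it stood at -0.08. Camk2b read 39865 in ASO, 35239 in ACO and 38470 in NCO, with no saturated pixels, and its differences ran from -0.13 to 0.18. Camk2d was lowest in ASO, at -0.24 against NCO, and Camk2g differed by -0.13. All 4 kinase genes were within 1.2-fold throughout by their brightest probes. With spot means, Camk2b stood at 0.27 in ASO minus ACO. From spot medians, another Camk2d probe stood at -0.28 in ACO minus NCO.

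Camk2n1, which codes for an endogenous inhibitor protein of CaMKII, was the exception of this group. It read 3897 in ASO, 3736 in ACO and 2384 in NCO. Both groups given the peptide were high, by 0.70 in ASO minus NCO (1.62-fold) and by 0.64 in ACO minus NCO (1.56-fold). They differed from each other by 0.06. Both differences from NCO rest on the same NCO reading of 1 probe, so they are not separate results. In ACO minus NCO, 0.285% of all genes lay farther from 0. The authors' deposited table gave 3496.3 in ASO, 3591.9 in ACO and 2215.8 in NCO. Those values follow the same scanner readings, so they are not a separate measurement. The related inhibitor Camk2n2, named for that kinship, stood at -0.07 in ACO minus NCO and -0.02 in ASO minus NCO. Neurogranin (Nrgn), which holds calmodulin at low calcium, read 14861 in ASO, 14019 in ACO and 14031 in NCO, within 0.08 of one another.

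Neuroligins are postsynaptic adhesion proteins that bind presynaptic partners across the cleft, with Nlgn1 at excitatory and Nlgn2 at inhibitory synapses. Nlgn1 read 692 in ASO, 427 in ACO and 444 in NCO. ASO was the high array, by 0.64 over ACO (1.56-fold) and by 0.59 over NCO (1.5-fold), while ACO and NCO differed by -0.05. Spots around it were also 0.16 higher in ASO than in ACO, and with that shift taken off the difference was 0.48. Nlgn2 differed by 0.13 in ASO minus ACO. Nlgn3 stood at -0.15 by its brightest probe and at 0.04 by a second probe, so its direction was not settled.

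The arrays also allowed a check within genes. For 15 genes, at least 2 probes were well above background on all 3 arrays. The second probe fell on the same side of 0 as the brightest in 13 of 16 genes for ACO minus NCO, in 11 of 16 for ASO minus ACO and in 8 of 15 for ASO minus NCO. Over all genes with at least 2 measured probes the shares were 55.7%, 57.0% and 56.0%. In no synaptic gene did both probes reach 1.2-fold. Over all genes both did in 24 of 3021, 105 of 3096 and 115 of 3058, in the same order of comparisons. Among the synaptic genes with at least 2 measured probes, the brightest reached it in 1, 0 and 1 cases. The absence of such a gene therefore says little. Of the 7 genes past 1.2-fold, 6 had 1 measured probe, and the exception was Dlg1, whose second probe did not follow.

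**Figure D4:**
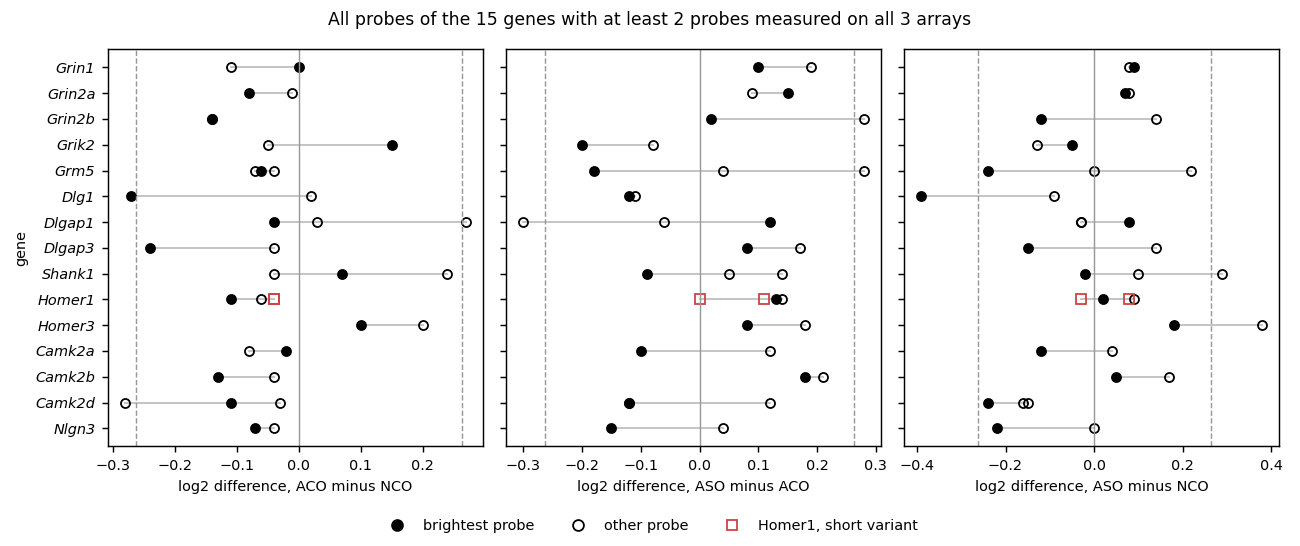
Log2 difference (x axis) of every measured probe for the 15 genes (y axis) with at least 2 probes on all 3 arrays, in ACO minus NCO, ASO minus ACO and ASO minus NCO. Filled points are the brightest probe, open points the others, red squares the short-form Homer1 probes and dashed lines 1.2-fold; Dlgap1 and Grm5 have probes on opposite sides of 0 in ASO minus ACO.

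The neighbouring parts of the synapse were read from 85 other genes: AMPA receptors and their auxiliary proteins, further glutamate receptor genes, other postsynaptic density proteins, calmodulin and calcineurin genes, and synaptic adhesion molecules. In ACO minus NCO, 2 of 77 measured genes (2.6%) were at least 1.2-fold higher and 2 (2.6%) lower, against 2.76% and 2.72% of all genes, with a median of -0.009. Kalrn, a guanine nucleotide exchange factor of spines, was higher at 0.34, and the AMPA receptor subunit Gria1 lower at -0.56. Gria1 read 2876 in ASO, 1985 in ACO and 2946 in NCO, so ACO was the low array. The value of 0.52 for Gria1 in ASO minus ACO rests on the same ACO reading of 1 measured probe, so it is not a separate result.

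In ASO minus ACO, 10 of 76 (13.2%) were higher and 5 (6.58%) lower, against 10.1% and 9.25% of all genes, with a median of 0.016. The phosphatase subunit Ppp3ca was 0.40 higher. Gria3 was lower at -0.34, as was Arc, an activity-induced gene of spines, at -0.29. Of the 19 adhesion molecules measured, 5 were higher and none lower, with a median of 0.04, against -0.01 over all genes, and no test of the list was made. Among them was Ptprs, a receptor phosphatase, at 0.43, with 23082 in ASO, against 17163 in ACO.

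In ASO minus NCO, 11 of 77 (14.3%) were higher and 5 (6.49%) lower, against 10.4% and 8.31% of all genes, with a median of -0.019. Kalrn was 0.48 higher, and Gria3 at -0.41 and Ppp1r9a, a spine protein that binds actin, at -0.40 were lower. Of the 20 adhesion molecules measured, 6 were higher and 1 lower, with a median of -0.02, against -0.01 over all genes.

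Markers of other cells differed between the arrays too. In ACO minus NCO, 8 of 9 choroid plexus markers were at least 1.2-fold higher, against 2.76% of all genes, although their summed signal was 20490 in ACO and 24247 in NCO and the remaining marker, Ttr, was lower. All 10 oligodendrocyte genes lay below 0 in that comparison, against 6417 of 13312 genes, with a median of -0.19. In ASO minus ACO, 9 of 12 microglial markers were higher, against 10.1% of all genes, and 1 was lower. Their summed signal was 40424 in ASO, against 30921 in ACO and 36053 in NCO. In the same comparison, dentate granule cell markers were lower in 4 of 9 cases, against 9.25% of all genes, and higher in 1. Their sums were 8778 in ASO, 10870 in ACO and 9702 in NCO. Striatal markers were lower in 3 of 6 cases and higher in none. Astrocyte markers, a list to set beside Grm3, were higher in 2 of 9 cases and lower in none. Pan-neuronal genes summed to 94814 in ASO, 81814 in ACO and 86230 in NCO, but the single genes were split. In ASO minus ACO 4 lay above 0 and 4 below. In ASO minus NCO 3 lay above and 5 below, with a median of -0.06, on the other side of 0 from the sums. Over all genes, 47.1% lay above 0 in each of these comparisons. The part of all these markers in the differences of the 39 genes was not tested.

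**Figure D5:**
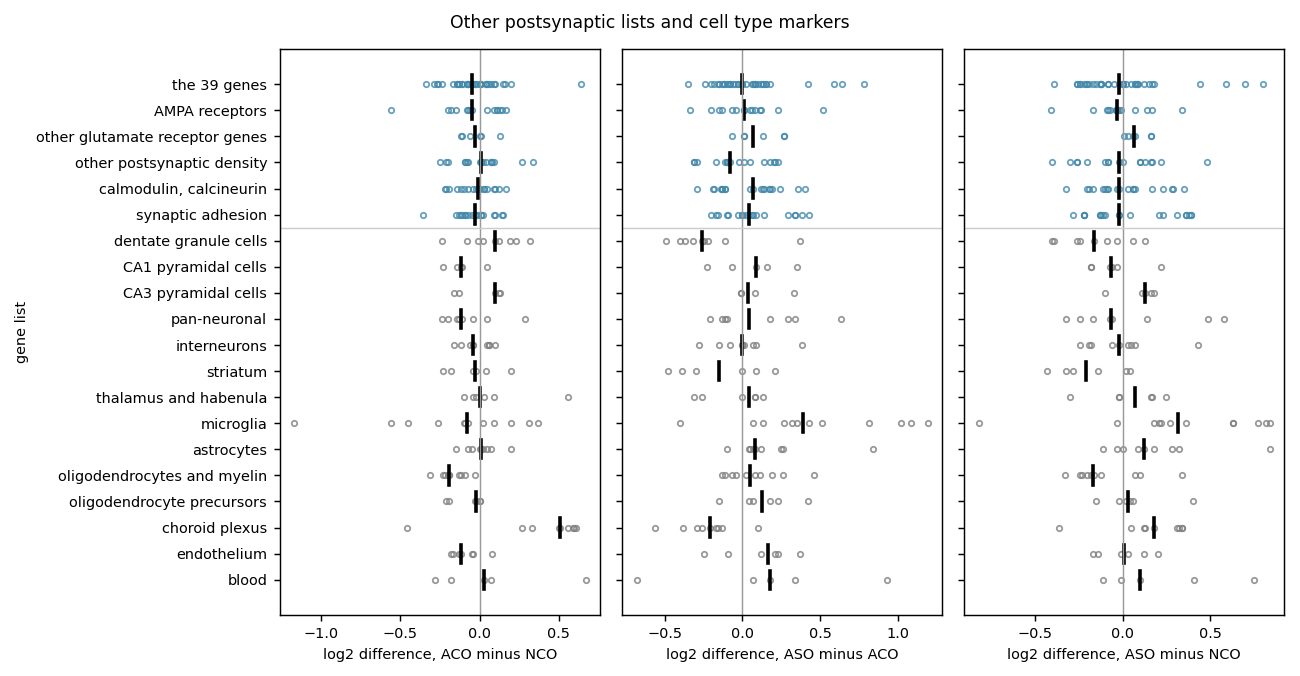
Log2 difference (x axis) of single genes (points) by list (y axis) for ACO minus NCO, ASO minus ACO and ASO minus NCO, with each list's median as a black bar. Blue points are the 39 genes and the other postsynaptic lists, grey points cell type markers; choroid plexus markers lie mostly to the right in ACO minus NCO and microglial markers in ASO minus ACO.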

How the data were processed

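Hippocampal RNA of 3 groups was measured on 3 one-colour arrays, 1 pool and 1 array each, with groups taken from the labels. Foreground and local background were deposited as intensity values from scans at 532 nm quantified with GenePix Pro 6.1.0.4, not normalized, per the file headers. GenePix Pro's signal to noise score and its percent of pixels at saturation were also deposited for every spot. The submitters' processing notes list Agilent Feature Extraction. The genome build is not given in the sources used here.

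From these, limma 3.58.1 (R 4.3.3) corrected the foreground median by normexp with offset 0. Arrays were scaled to a common 75th percentile, 50 was added and log2 taken. Spots of one probe were averaged, control spots were left out, and the brightest probe with a signal to noise of at least 2.6 on both arrays stood for a gene. Genes of the other lists were named through RefSeq where the file's name was old. The steps were tested on simulated data. Tables and figures used Python 3.11.15 with pandas 2.3.3 and matplotlib 3.10.9.

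With 1 array a group no test was run. The number of arrays limits the precision. The genes and lists were chosen with earlier results of these data known. Named with all array values were genes at least 1.2-fold apart and a set of core synaptic genes, and of the other lists at most the 5 highest and 5 lowest in each comparison. Some genes of those lists are counted but not reported here by name. The authors' deposited value table of 475 probes held 2 of the genes. Its values are linear intensity, not centred, with column medians of 113.3 in ASO, 97.4 in ACO and 116.8 in NCO. They followed the scanner foreground with slopes of 0.893 in ASO, 0.917 in ACO and 1 in NCO, and the reason for those slopes is unknown.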

Additional observations from a re-analysis of the deposited data

How the results depend on the processing

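Each value was recomputed in 9 ways: plain background subtraction, spot means, quantile normalization, median scaling, a constant of 16, no filter on dim probes, a signal to noise of at least 5, the mean over probes, and correction by surrounding spots. Of 14 differences of at least 1.2-fold, 11 stayed past it in all 9. The exceptions were Grik5 in ACO minus NCO, which reversed to 0.09 with spot means, and Dlg1, which fell short in ACO minus NCO with spot means, the mean over probes and surrounding spots, and in ASO minus NCO with the mean over probes. The causes were not tested.

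Counts of genes at least 1.2-fold higher did not move by over 1.5 times under these settings. The count at least 1.5-fold higher in ASO minus ACO, rechecked after seeing the data, was 0 with spot means and 1 with surrounding spots, in place of 3. In ACO minus NCO the count of lower genes was 2 with spot means and 2 with the mean over probes, in place of 3. It was 4 with plain subtraction, quantile normalization and a constant of 16. The count of lower genes in ASO minus ACO was 2 with spot means, 2 with a constant of 16 and 2 with surrounding spots, in place of 1. In ASO minus NCO it was 2 with plain subtraction, 3 with quantile normalization, 2 with median scaling, 2 with a constant of 16, 2 with surrounding spots and 0 with the mean over probes, in place of 1. At 1.5-fold, the count of lower genes was 0 in ACO minus NCO, 0 in ASO minus ACO and 0 in ASO minus NCO. The causes were not tested.

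The genes' median ran from -0.051 to -0.008 in ACO minus NCO, from -0.021 to 0.023 in ASO minus ACO and from -0.068 to 0.002 in ASO minus NCO. In the authors' value table, an alternative chosen after seeing the data, Camk2n1 stood at -0.04 in ASO minus ACO and Grin3a at -0.42 in ACO minus NCO. No paired analysis was possible because each group had 1 array. Dim probes such as those of Grin3a and Grik2 lie close to background, which limits their precision.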
